A study of Homo sapiens with 28 samples.

Results

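Expression of 8 genes of calcium entry was followed in LNCaP prostate cancer cells, namely TRPM8, TRPM4, TRPV6, CACNA1D, ORAI1, ORAI3, STIM1 and STIM2. They were taken by gene symbol from a count table of 61815 genes, and each symbol matched 1 row. RNA-Seq had been done on 28 libraries in 2 experiments of 4 groups each. In the first, with 3 libraries per group, cells received 0.1% DMSO (vehicle), 1 µM Senexin B, 0.1 nM R1881, or Senexin B with R1881, for 24 h. The Senexin B dose is that of the labels, and the study's text gives a higher one for LNCaP RNA-Seq, so the dose behind each Senexin B value is uncertain. In the second, with 4 libraries per group, cells received 0.1% DMSO, 500 nM SNX631, 1 nM R1881, or SNX631 with R1881, for 72 h. R1881 is a synthetic androgen, and Senexin B and SNX631 are inhibitors of the Mediator kinases CDK8 and CDK19. All groups shared the wild-type LNCaP line, an androgen-responsive line of prostate epithelium, and 72 h in charcoal-stripped serum, which is poor in androgen, before treatment. The comparisons asked how androgen and Mediator kinase inhibition (MKI) altered expression, alone and together. The study's methods call the RNA-Seq replicates biological, and neither they nor the labels say how separate the cultures of a group were, so p-values measure the spread between these libraries.

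Calcium enters epithelial cells through channels of the plasma membrane. TRPM8 is the cold- and menthol-sensing cation channel and is known in prostate epithelium for its dependence on androgen. TRPM4 is opened by internal calcium and carries sodium and potassium rather than calcium, while TRPV6 is a channel highly selective for calcium. CACNA1D encodes the pore of an L-type voltage-gated calcium channel. In store-operated entry, STIM1 and STIM2 sense calcium inside the endoplasmic reticulum (ER) and open pores made of ORAI1 and its relatives, including ORAI3, when the store is emptied.

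The libraries held 9846595 to 33809419 counts, of which the highest was vehicle 24 h replicate 3 and the next highest was 15248512. Levels are given as CPM, counts relative to the TMM-scaled library total, and levels of different genes are compared only per kilobase of exon. A gene passed at a false discovery rate (FDR) under 0.01 by edgeR's quasi-likelihood test over all genes tested, and was called when its fold change was also over 1.5. All FDR values come from that test unless another is named. The androgen target KLK3, which encodes prostate-specific antigen, stood at 1.44 ± 0.293 CPM (SD, n = 3) in vehicle and 110.4 ± 4.17 CPM in R1881 at 24 h, and at 1.44 ± 0.171 CPM (n = 4) and 138 ± 7.60 CPM at 72 h. The prostate epithelial markers FOLH1, HOXB13, FOXA1, KRT8, KRT18 and EPCAM each held at least 159 CPM in every library. Of 13 markers of basal, fibroblast, endothelial and immune cells, CD3E was at 0 throughout and 9 others stayed under 1 CPM. The exceptions were COL1A1 (7.36 to 31.4 CPM), VWF (0.332 to 4.56 CPM) and CD68 (0.343 to 1.38 CPM). Their companions COL1A2, DCN, PECAM1, CDH5 and PTPRC were at or near 0, while LUM of the fibroblast list reached 0.992 CPM. The summed fibroblast list was 22.5 to 25.2 CPM in vehicle and 14.1 to 14.997 CPM in R1881 at 24 h, and 28.5 to 31.8 CPM and 17.3 to 24.4 CPM at 72 h, with 10.8 to 12.6 CPM in Senexin B, 18.8 to 22.6 CPM in SNX631, and 7.36 to 8.81 CPM and 10.5 to 12.9999 CPM with R1881 as well. The endothelial list, nearly all VWF, was 0.988 to 1.19 CPM in vehicle and 2.48 to 2.94 CPM in R1881 at 24 h, and 0.611 to 1.30 CPM and 3.30 to 4.56 CPM at 72 h. With inhibitor it was 0.332 to 0.762 CPM in Senexin B and 0.341 to 1.28 CPM in SNX631, and 1.02 to 2.58 CPM and 2.56 to 3.27 CPM with R1881 as well. The basal and immune lists stayed at or under 0.441 and 1.38 CPM. The part of these lists in the results was not tested.

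TRPM8 and CACNA1D were the members called for R1881, in opposite directions, and the stretches before their start sites are shown to set an androgen-raised gene beside an androgen-lowered one. RefSeq promoters of build GRCh38.p14 were matched for 7 of the 8 members, in 15 windows, of which 6 belonged to TRPM8 and 4 to STIM1. Each printed window is the 250 bases before a start site, on the plus strand. The window at chr2:233917123-233917372 ends just upstream of TRPM8 in the GENCODE 29 annotation. The window at chr2:233979899-233980148 precedes a start site inside TRPM8 and is intronic but for 27 bases of exon. The window at chr3:53494361-53494610 lies in an intron of the long CACNA1D model, before a downstream start site. Capitals mark AGAACA, the core of each arm of the androgen response element, or its reverse complement TGTTCT.
TRPM8, upstream start: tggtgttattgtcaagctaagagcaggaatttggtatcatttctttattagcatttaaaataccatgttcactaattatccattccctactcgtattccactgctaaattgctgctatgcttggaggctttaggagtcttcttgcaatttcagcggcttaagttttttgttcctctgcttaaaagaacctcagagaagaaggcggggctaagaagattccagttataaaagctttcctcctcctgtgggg
TRPM8, internal start: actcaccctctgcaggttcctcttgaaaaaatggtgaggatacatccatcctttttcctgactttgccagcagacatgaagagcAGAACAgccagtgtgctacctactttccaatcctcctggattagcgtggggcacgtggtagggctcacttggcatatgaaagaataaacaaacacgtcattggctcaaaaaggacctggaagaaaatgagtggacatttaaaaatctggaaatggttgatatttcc
CACNA1D: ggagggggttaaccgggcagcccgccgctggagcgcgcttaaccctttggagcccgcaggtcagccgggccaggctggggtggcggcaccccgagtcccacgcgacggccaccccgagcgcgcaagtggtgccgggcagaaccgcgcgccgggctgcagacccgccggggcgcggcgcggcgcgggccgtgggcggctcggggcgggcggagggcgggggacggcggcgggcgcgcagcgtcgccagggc

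AGAACA or TGTTCT was found in 1 of the 6 TRPM8 windows, 166 bases before the internal start site, and not in the window at the upstream start. TRPV6 held it 250 bases and STIM1 182 and 49 bases before a start site, so 3 of the 15 windows held it. Among 35116 RefSeq windows of the same length, 4350 (12.4%) held it, searched on both strands. These matches describe letters only. The windows also differed in composition. The CACNA1D window had 81.6% G and C and 41 CpG, above 98.0% and 98.3% of all windows, and the upstream TRPM8 window had 40.0% and 3 CpG against medians of 58.0% and 11.

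TRPM8 (chr2:233917398-234019522, plus strand, GRCh38 as all positions here) was almost absent without androgen and abundant with it. Vehicle libraries at 24 h held 4, 3 and 14 TRPM8 counts, and R1881 libraries held 546, 548 and 595. At 72 h, the vehicle libraries held 4, 1, 3 and 5 counts and the R1881 libraries 333, 404, 403 and 387. No androgen-treated library came near any androgen-free library. In these bulk samples, fewer expressing cells and less RNA per cell cannot be told apart. Summed over libraries, 0.364 CPM rose to 49.2 CPM at 24 h, a ratio of 135 (95% exact counting interval 88.2 to 219), and 0.277 CPM rose to 33.6 CPM at 72 h, a ratio of 121 (70.8 to 229). These intervals cover counting error only. The fitted log2 fold changes were 7.12 ± 0.128 (SE; FDR 1.23e-29) and 6.97 ± 0.150 (FDR 9.31e-32). TRPM8 passed the filter on low counts only through the groups given R1881, apart from 1 SNX631 library that reached the filter's level, so a gene kept in this way had to differ.

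Both inhibitors lowered TRPM8 in the presence of R1881. At 24 h, the R1881 libraries held 50.1, 48.3 and 51.4 CPM and those given Senexin B as well held 33.4, 33.5 and 37.1 CPM. At 72 h, the R1881 libraries held 34.8, 33.5, 35.9 and 34.0 CPM and those given SNX631 as well held 25.0, 26.9, 24.5 and 24.0 CPM. In each experiment, every library with the inhibitor was below every library without it. TRPM8 fell by 0.52 on the log2 scale (SE 0.0595, FDR 2.93e-08) with Senexin B and by 0.46 (SE 0.0585, FDR 3.27e-08) with SNX631, to summed ratios of 0.679 (0.630 to 0.731) and 0.711 (0.660 to 0.765), short of the 1.5-fold limit. KLK3 stood at 29.1 ± 0.629 CPM and 46.2 ± 1.65 CPM in the same groups.

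Without R1881, the inhibitor groups held 5, 5 and 6 TRPM8 counts with Senexin B and 7, 4, 10 and 5 with SNX631. The ratios to vehicle were 1.15 (0.560 to 2.31) and 1.98 (0.981 to 4.19), and no difference was detectable at this depth. With the inhibitor in both arms, the R1881 ratio was 79.9 (49.0 to 140.3) with Senexin B and 43.6 (29.6 to 67.0) with SNX631. The interaction, the change in the R1881 effect on adding inhibitor, was -0.76 ± 0.446 (FDR 0.457) and -1.44 ± 0.437 (FDR 0.0231), and neither passed. Both rest on the few counts of the androgen-free groups.

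TRPM4 (chr19:49157741-49211836, plus strand), the calcium-activated channel for sodium and potassium, rose with R1881 and fell with inhibitor in all 8 comparisons. At 24 h, it was at 81.0, 85.0 and 85.7 CPM in vehicle and at 96.7, 105.8 and 97.8 CPM in R1881. Senexin B libraries held 69.1, 74.5 and 72.6 CPM without R1881 and 83.6, 75.9 and 84.7 CPM with it. Each agent alone separated its libraries from vehicle, upward for R1881 and downward for Senexin B, and the libraries with both agents overlapped vehicle. At 72 h, TRPM4 was at 87.4, 79.1, 82.5 and 76.4 CPM in vehicle and at 104.5, 107.3, 106.4 and 98.1 CPM in R1881. SNX631 libraries held 67.0, 69.4, 65.3 and 76.0 CPM without R1881 and 76.5, 76.3, 81.8 and 86.0 CPM with it. The pattern of the 24 h groups was seen again, with no overlap between vehicle and either agent alone.

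The R1881 effect on TRPM4 was 0.25 ± 0.0449 (log2 fold change, SE; FDR 1.82e-05) at 24 h and 0.36 ± 0.0447 (FDR 8.34e-09) at 72 h, and 0.18 ± 0.0490 (FDR 0.00221) and 0.21 ± 0.0463 (FDR 0.000153) in the presence of Senexin B and SNX631. Senexin B lowered TRPM4 by -0.23 ± 0.0462 (FDR 0.000228) without R1881 and by -0.29 ± 0.0476 (FDR 1.19e-05) with it. The SNX631 effects were -0.23 ± 0.0470 (FDR 0.000169) and -0.38 ± 0.0440 (FDR 5.80e-09). None reached 1.5-fold. The R1881 effect with Senexin B no longer passed without Senexin B replicate 1 (0.14, FDR 0.0282), without R1881 + Senexin B replicate 1 (0.16, FDR 0.0183) or replicate 3 (0.15, FDR 0.0220), at equal depth, with all libraries thinned to the smallest total, it was 0.12 (FDR 0.0439), and with library totals in place of TMM it was 0.11 (FDR 0.0612) and, in SNX631, 0.10 (FDR 0.0574).

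TRPV6 (chr7:142871203-142885762, minus strand), the calcium-selective channel, rose with R1881 at 24 h and fell with inhibitor in 3 of 4 comparisons. At 24 h, it held 25.2, 24.6 and 27.2 CPM in vehicle and 32.6, 35.4 and 28.5 CPM in R1881. The Senexin B libraries held 23.5, 20.8 and 17.9 CPM without R1881 and 27.6, 27.2 and 30.9 CPM with it. R1881 libraries were above those without R1881 in either pairing. TRPV6 rose by 0.30 ± 0.0775 (FDR 0.00119) without inhibitor and by 0.47 ± 0.0874 (FDR 3.04e-05) with Senexin B, and fell by 0.33 on the log2 scale with Senexin B alone (SE 0.0822, FDR 0.00207). The R1881 rise without inhibitor no longer passed without R1881 replicate 2 (0.24, FDR 0.0153) or with library totals (0.23, FDR 0.0135), and the Senexin B fall without vehicle replicate 3 (-0.25, FDR 0.0557) or Senexin B replicate 3 (-0.22, FDR 0.0509).

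At 72 h, TRPV6 held 24.3, 24.1, 23.2 and 21.7 CPM in vehicle and 25.0, 24.7, 24.5 and 21.8 CPM in R1881, and these groups overlapped. The SNX631 libraries held 17.2, 18.1, 22.0 and 19.9 CPM without R1881 and 18.6, 16.8, 15.9 and 16.9 CPM with it. With R1881 present, every SNX631 library lay below every library without the inhibitor. The R1881 effect was 0.04 ± 0.0682 (FDR 0.620) without inhibitor, which became -0.06 with library totals, and -0.19 ± 0.0729 (FDR 0.0237) with SNX631, which passed with library totals (-0.30, FDR 0.000582) and without SNX631 replicate 1 (-0.24, FDR 0.00682). SNX631 lowered TRPV6 by -0.27 ± 0.0699 (FDR 0.00226) without R1881 and by -0.50 ± 0.0711 (FDR 3.66e-07) with it. The former no longer passed without vehicle replicate 2 (FDR 0.0103), SNX631 replicate 1 (FDR 0.0153) or SNX631 replicate 2 (FDR 0.0143), at -0.25, -0.22 and -0.24. The difference in R1881 effect between 72 and 24 h was -0.26 ± 0.107 (FDR 0.102) and did not pass. The R1881 dose (1 against 0.1 nM) and the experiment differed along with time, and these cannot be told apart.

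CACNA1D (chr3:53328963-53813733, plus strand), the L-type channel pore, was lowered by R1881 in all 4 R1881 comparisons and called in each. It held 10.4, 12.0 and 12.5 CPM in vehicle and 8.27, 7.15 and 6.48 CPM in R1881 at 24 h. At 72 h, it held 11.5, 13.2, 11.9 and 13.1 CPM in vehicle and 6.17, 7.29, 6.15 and 6.50 CPM in R1881. Every R1881 library was below every vehicle library. The effects were -0.71 ± 0.107 (FDR 1.06e-06) at 24 h and -0.93 ± 0.105 (FDR 8.71e-10) at 72 h, and -0.77 ± 0.111 (FDR 4.30e-07) and -0.66 ± 0.108 (FDR 1.43e-06) with Senexin B and SNX631 present. Without R1881 + SNX631 replicate 3, the last fell short of the fold limit at -0.56 (FDR 3.15e-05).

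In the androgen-free groups, CACNA1D passed as lower with SNX631 and did not pass with Senexin B. Senexin B libraries held 12.7, 13.02 and 12.4 CPM, overlapping vehicle, and SNX631 libraries held 10.9, 9.30, 8.96 and 8.69 CPM, all below vehicle. The effect was 0.09 ± 0.0913 (FDR 0.470) with Senexin B and -0.40 ± 0.0946 (FDR 0.000866) with SNX631. The difference between them was -0.50 ± 0.132 (FDR 0.0150), which missed the limit over all 28 libraries and passed without SNX631 replicate 1 (-0.55, FDR 0.00889). Inhibitor, dose and time differed at once and cannot be told apart. With R1881, CACNA1D held 6.69, 7.93 and 7.73 CPM with Senexin B and 7.27, 6.14, 4.74 and 5.86 CPM with SNX631, overlapping R1881 alone in each experiment (FDR 0.885 and 0.386). CACNA1D shares 1399 exon bases (6.80% of its exons) with CHDH on the opposite strand, whose 21822 counts over all libraries exceeded the 3406 of CACNA1D, and whether strand was used in counting is not given in the sources used here. CHDH changed by -0.20 ± 0.0538 (FDR 0.00180) with R1881 at 24 h and by -0.27 ± 0.0427 (FDR 1.20e-06) at 72 h, less than CACNA1D, and its part in the CACNA1D values was not tested.

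**Figure D1:**
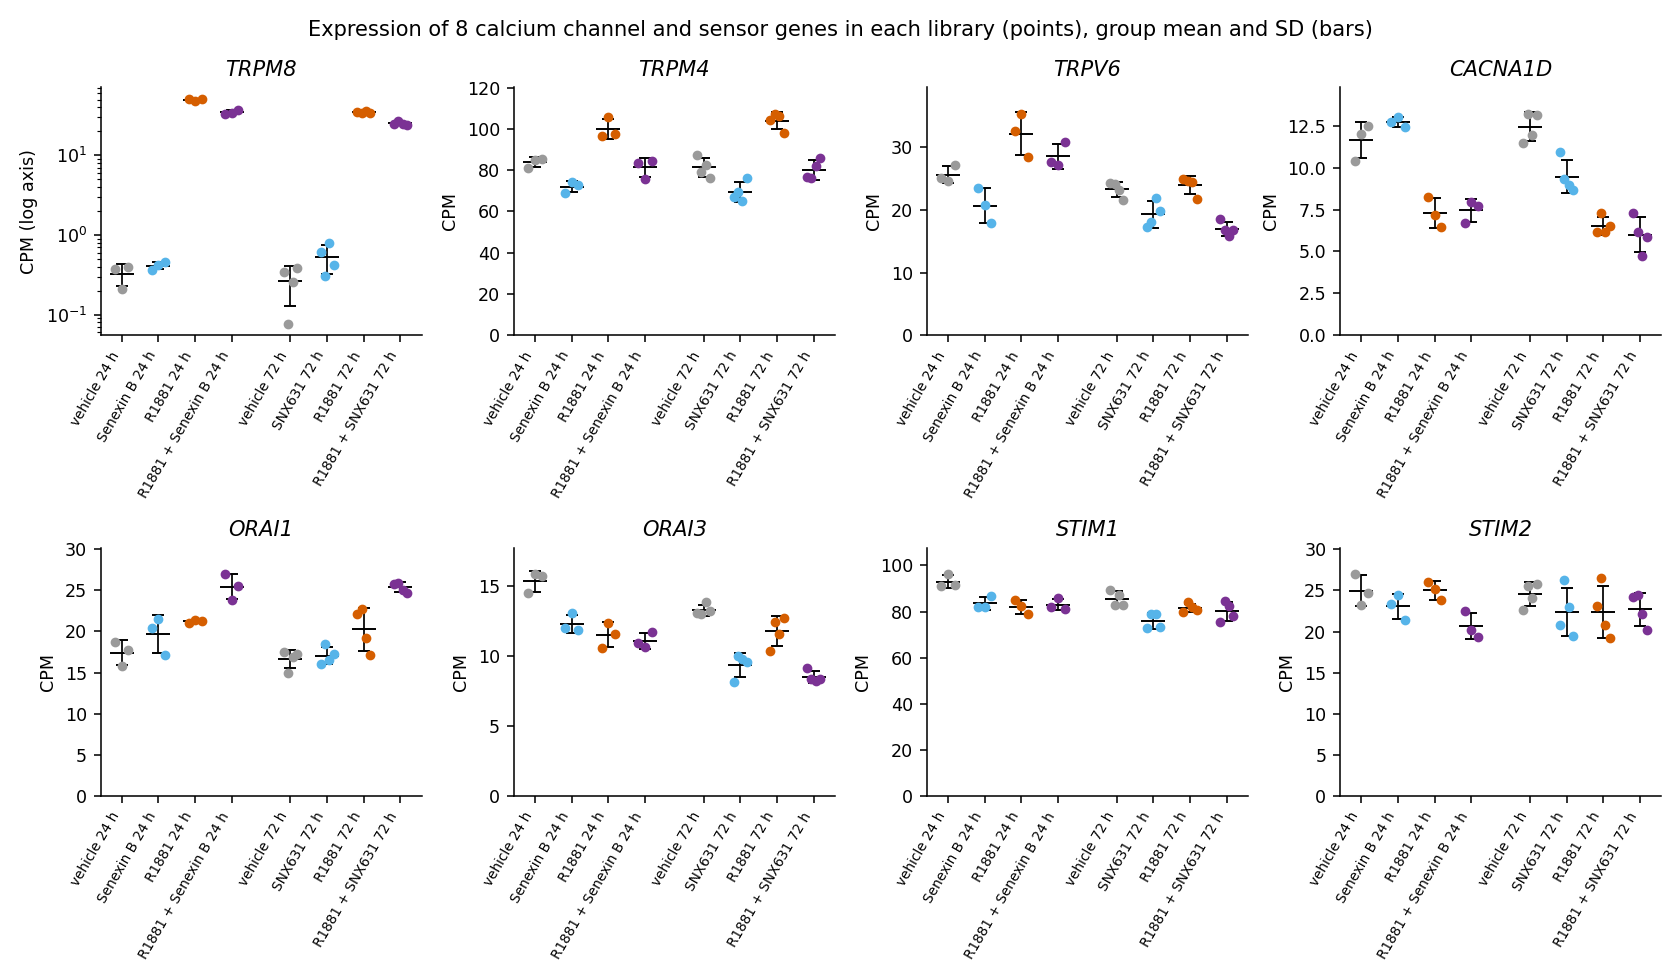
CPM of each member in each library (points) for the 8 groups, with group mean and SD as black bars, on a log axis for TRPM8 and linear axes from 0 for the others. TRPM8 lies at 0.800 CPM or lower in every androgen-free library and at 24.0 CPM or higher in every R1881 library, and CACNA1D is lower in each R1881 group than in the matching group without it.

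ORAI1 and ORAI3, pores of store-operated entry, passed in opposite directions: ORAI1 only as higher and ORAI3 only as lower. ORAI1 (chr12:121626550-121642677, plus strand) at 24 h was at 18.7, 15.7 and 17.8 CPM in vehicle and at 21.0, 21.4 and 21.3 CPM in R1881. Senexin B libraries held 20.4, 21.6 and 17.1 CPM without R1881 and 26.9, 23.9 and 25.5 CPM with it. The libraries with both agents were above all others. R1881 raised ORAI1 by 0.29 ± 0.0808 (FDR 0.00303), and by 0.37 ± 0.0806 (FDR 0.000193) with Senexin B present. The former was lost without vehicle replicate 2 (0.24, FDR 0.0154), with library totals (0.21, FDR 0.0273), at equal depth (0.26, FDR 0.0136), and by DESeq2's Wald test (0.29, FDR 0.0110). The Senexin B effects were 0.18 ± 0.0796 (FDR 0.0852) and, with R1881, 0.26 ± 0.0816 (FDR 0.0127), and neither passed, although the latter did without Senexin B replicate 3 (0.25, FDR 0.00977).

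At 72 h, ORAI1 held 17.5, 14.96, 16.9 and 17.2 CPM in vehicle and 22.1, 22.7, 19.2 and 17.1 CPM in R1881. The SNX631 libraries held 16.1, 18.5, 16.5 and 17.2 CPM without R1881 and 25.8, 25.9, 25.1 and 24.6 CPM with it. Again the libraries with both agents stood above the rest. R1881 raised ORAI1 by 0.28 ± 0.0768 (FDR 0.00160) although the groups overlapped, and the rise was lost without vehicle replicate 2 (0.23, FDR 0.0150), without R1881 replicate 2 (0.22, FDR 0.0223) and with library totals (0.18, FDR 0.0372). With SNX631 present, R1881 raised it by 0.57 ± 0.0701 (FDR 5.35e-09). SNX631 raised ORAI1 by 0.32 ± 0.0692 (FDR 0.000188) with R1881, the only passed rise of a member with an inhibitor, against 0.04 ± 0.0780 (FDR 0.721) without it. The interaction was 0.28 ± 0.104 (FDR 0.0692) and did not pass.

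ORAI3 (chr16:30949066-30956461, plus strand) was lowered by inhibitor in 3 of 4 comparisons and by R1881 in 1 of 4. At 24 h, it held 14.5, 15.8 and 15.7 CPM in vehicle, 10.6, 12.4 and 11.6 CPM in R1881, 12.0, 13.02 and 11.8 CPM in Senexin B and 10.9, 10.6 and 11.7 CPM with both. Every treated library was below vehicle. R1881 lowered ORAI3 by -0.42 ± 0.0865 (FDR 9.39e-05), and Senexin B by -0.34 ± 0.0824 (FDR 0.00170). With R1881 the Senexin B effect was -0.05 ± 0.100 (FDR 0.752), and with Senexin B the R1881 effect was -0.14 ± 0.0961 (FDR 0.222). The Senexin B fall without R1881 was lost without vehicle replicate 3 (-0.31, FDR 0.0233), Senexin B replicate 1 (-0.31, FDR 0.0126) or replicate 3 (-0.30, FDR 0.0150), at equal depth (-0.24, FDR 0.0587) and by DESeq2 (-0.32, FDR 0.0225).

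At 72 h, ORAI3 held 13.05, 12.97, 13.8 and 13.2 CPM in vehicle and 10.4, 12.4, 11.6 and 12.7 CPM in R1881. The SNX631 libraries held 8.13, 9.99, 9.76 and 9.54 CPM without R1881 and 9.10, 8.36, 8.18 and 8.35 CPM with it. SNX631 libraries were below those without it whether or not R1881 was present. SNX631 lowered ORAI3 by -0.50 ± 0.0832 (FDR 7.78e-06) without R1881 and by -0.48 ± 0.0868 (FDR 1.93e-05) with it. The R1881 effects were -0.16 ± 0.0809 (FDR 0.0855), which passed with library totals (-0.26, FDR 0.00458), and -0.14 ± 0.0894 (FDR 0.167) with SNX631. The inhibitor effect with R1881 differed by -0.42 ± 0.126 between SNX631 at 72 h and Senexin B at 24 h (FDR 0.0391), which did not pass. ORAI3 shares 1397 bases, 52.9% of its exons, with AC135048.1 on the same strand, so reads there could be split between the genes and the level of ORAI3 is uncertain. The sum of both genes was 22.2 to 24.1 CPM in vehicle, 16.1 to 19.1 CPM in R1881 and 17.9 to 20.5 CPM in Senexin B at 24 h, and 20.1 to 21.7 CPM in vehicle and 13.6 to 16.1 CPM in SNX631 at 72 h, without overlap with vehicle in these groups.

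The ratio of ORAI1 to ORAI3 does not depend on the scaling of libraries and was formed after the values above were seen. Its size carries the uncertainty in the level of ORAI3 that comes from shared exons. Per kilobase of exon, it was 1.33 ± 0.173 (SD, n = 3) in vehicle, 1.88 ± 0.159 in Senexin B, 2.17 ± 0.150 in R1881 and 2.69 ± 0.173 with both at 24 h. At 72 h it was 1.47 ± 0.0987 (n = 4) in vehicle, 2.14 ± 0.140 in SNX631, 2.03 ± 0.384 in R1881 and 3.49 ± 0.143 with both. In all 8 comparisons each treated library had a higher ratio than each library it was compared with. By an exact two-sided permutation test, p was 0.0286 in each of the 4 comparisons at 72 h and 0.100 in each at 24 h. These are the smallest that 4 against 4 and 3 against 3 allow. After adjustment over 16 tests of this ratio and the next, they were 0.114 and 0.160. The ratio was picked from these same libraries, and its comparisons share groups. The p-values and the separation of libraries therefore repeat that choice and are not read as a result. The share of other gene pairs separated in this way was not computed. The ratio of STIM1 to STIM2 ranged from 3.18 ± 0.0369 in R1881 at 24 h to 3.91 ± 0.321 with R1881 and Senexin B, and its libraries overlapped in 6 of 8 comparisons.

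**Figure D2:**
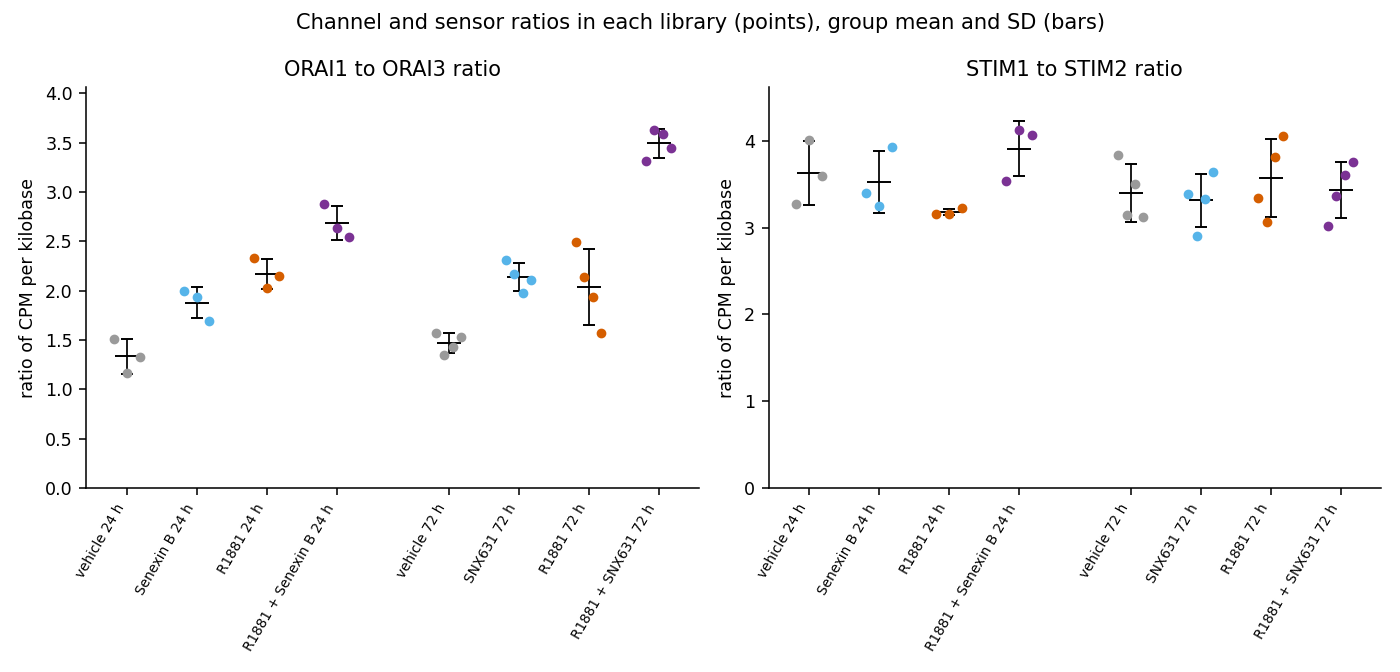
Ratio of ORAI1 to ORAI3 (left) and of STIM1 to STIM2 (right) in CPM per kilobase of exon, for each library (points) with group mean and SD, on axes from 0. Between vehicle and both agents, the mean ORAI1 to ORAI3 ratio goes up to 2.69 from 1.33 at 24 h and to 3.49 from 1.47 at 72 h, while the STIM1 to STIM2 ratio stays between 2.90 and 4.12.

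The ER sensors passed in the fewest comparisons. STIM1 (chr11:3854527-4093210, plus strand) ranged over 91.1 to 96.1 CPM in vehicle, 79.1 to 85.1 CPM in R1881, 81.8 to 86.8 CPM in Senexin B and 81.3 to 85.8 CPM with both at 24 h. All 9 treated libraries were below vehicle. R1881 lowered STIM1 by -0.18 ± 0.0421 (FDR 0.000581), which was lost without R1881 replicate 3 (-0.14, FDR 0.0124) and at equal depth (-0.14, FDR 0.0129). Senexin B lowered it by -0.15 ± 0.0411 (FDR 0.00427), which was lost without vehicle replicate 2 (-0.12, FDR 0.0363) or 3 (-0.16, FDR 0.0161), without Senexin B replicate 1 (-0.13, FDR 0.0338) or 2 (-0.13, FDR 0.0346), at equal depth (-0.13, FDR 0.0367) and by DESeq2 (-0.15, FDR 0.0188). With the other agent present, the effects were -0.01 ± 0.0440 (R1881) and 0.01 ± 0.0450 (Senexin B), and STIM1's interaction was 0.17 ± 0.0609 (FDR 0.130).

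At 72 h, STIM1 ranged over 82.9 to 89.5 CPM in vehicle, 72.8 to 78.9 CPM in SNX631, 79.7 to 84.0 CPM in R1881 and 75.5 to 84.8 CPM with both. SNX631 lowered it by -0.17 ± 0.0397 (FDR 0.000734) without R1881 and gave -0.02 ± 0.0396 (FDR 0.674) with it. The R1881 effect was -0.07 ± 0.0399 (FDR 0.137), which passed with library totals (-0.17, FDR 0.000333), and 0.08 ± 0.0394 (FDR 0.0786) with SNX631. STIM2 (chr4:26857678-27025381, plus strand), the partner that responds to smaller losses of stored calcium, ranged from 19.2 to 26.9 CPM over all 28 libraries. It passed in 1 of 8 comparisons, with Senexin B in the presence of R1881 (-0.28 ± 0.0791, FDR 0.00676), where libraries at 22.4, 20.2 and 19.4 CPM lay below 26.1, 25.2 and 23.8 CPM. It no longer passed without R1881 24 h replicate 1 (-0.26, FDR 0.0299) or 2 (-0.28, FDR 0.0139), without R1881 + Senexin B replicate 2 (-0.26, FDR 0.0247) or 3 (-0.23, FDR 0.0542), at equal depth (-0.27, FDR 0.0153), in a fit of all 28 libraries (-0.28, FDR 0.0188) and by DESeq2 (-0.28, FDR 0.0200). In the other 7 comparisons STIM2 lay between -0.16 and 0.02, with SE up to 0.0842.

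The counts of members for R1881 are read against all genes. At 24 h, 7 of 8 passed (4 higher, 3 lower) where 48.3% of all genes did, and 2 of 8 were called where 19.0% were. With Senexin B present, 5 passed and 2 were called, against 47.5% and 18.9%. At 72 h, 4 passed and 2 were called against 52.2% and 19.8%, and with SNX631 present again 4 and 2, against 57.2% and 22.0%. These counts include TRPM8, and the called members were TRPM8 and CACNA1D each time. The median log2 fold change of the members was 0.13, 0.08, -0.01 and 0.05 in these comparisons, and that of all genes lay between -0.02 and -0.01.

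For the inhibitors, the passed members were lower but for ORAI1. Senexin B without R1881 gave 4 passed, all lower, where 25.1% of genes passed, and with R1881 it gave 3, all lower, against 22.6%. SNX631 gave 5 passed, all lower, against 26.9% without R1881, and 5, of which 4 lower, against 33.2% with it. The members' medians were -0.13, -0.11, -0.20 and -0.26, against 0.00, 0.01, 0.00 and -0.01 for all genes. None was called, where 3.76%, 3.12%, 4.76% and 4.11% of genes were, and DESeq2 also called 0 in each. By edgeR, 5, 4, 6 and 5 members had an unadjusted p under 0.05. The share of all genes at that looser limit is not given here, so these counts are not read as a result. DESeq2 passed 2 members in each Senexin B comparison and 5 in each with SNX631. The shares of genes passed or called, here and below, are edgeR's. Those of DESeq2 are not given, so its counts of members are not read as a result.

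No member passed for an interaction, where 2.09% of genes passed and 0.583% were called with Senexin B and 7.09% and 1.19% with SNX631. At an unadjusted p under 0.05 by edgeR there were 2 and 5 members, and DESeq2 passed 0 in each. The shares of all genes above are at the stricter FDR limit and cannot be set against these 2 counts. The difference between experiments passed in 7.57% of genes for R1881, 2.31% for inhibitor without R1881 and 2.65% for inhibitor with R1881, and in 0 members by edgeR or DESeq2. By edgeR, 2, 1 and 3 members had an unadjusted p under 0.05, a limit for which the share of all genes is not given here. Libraries did not overlap for 7, 6, 4 and 4 members in the R1881 comparisons in the order above, against 62.0%, 62.2%, 54.9% and 57.7% of genes. They did not overlap for 4, 4, 4 and 5 members in the inhibitor comparisons, against 45.7%, 42.1%, 33.0% and 37.7%.

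**Figure D3:**
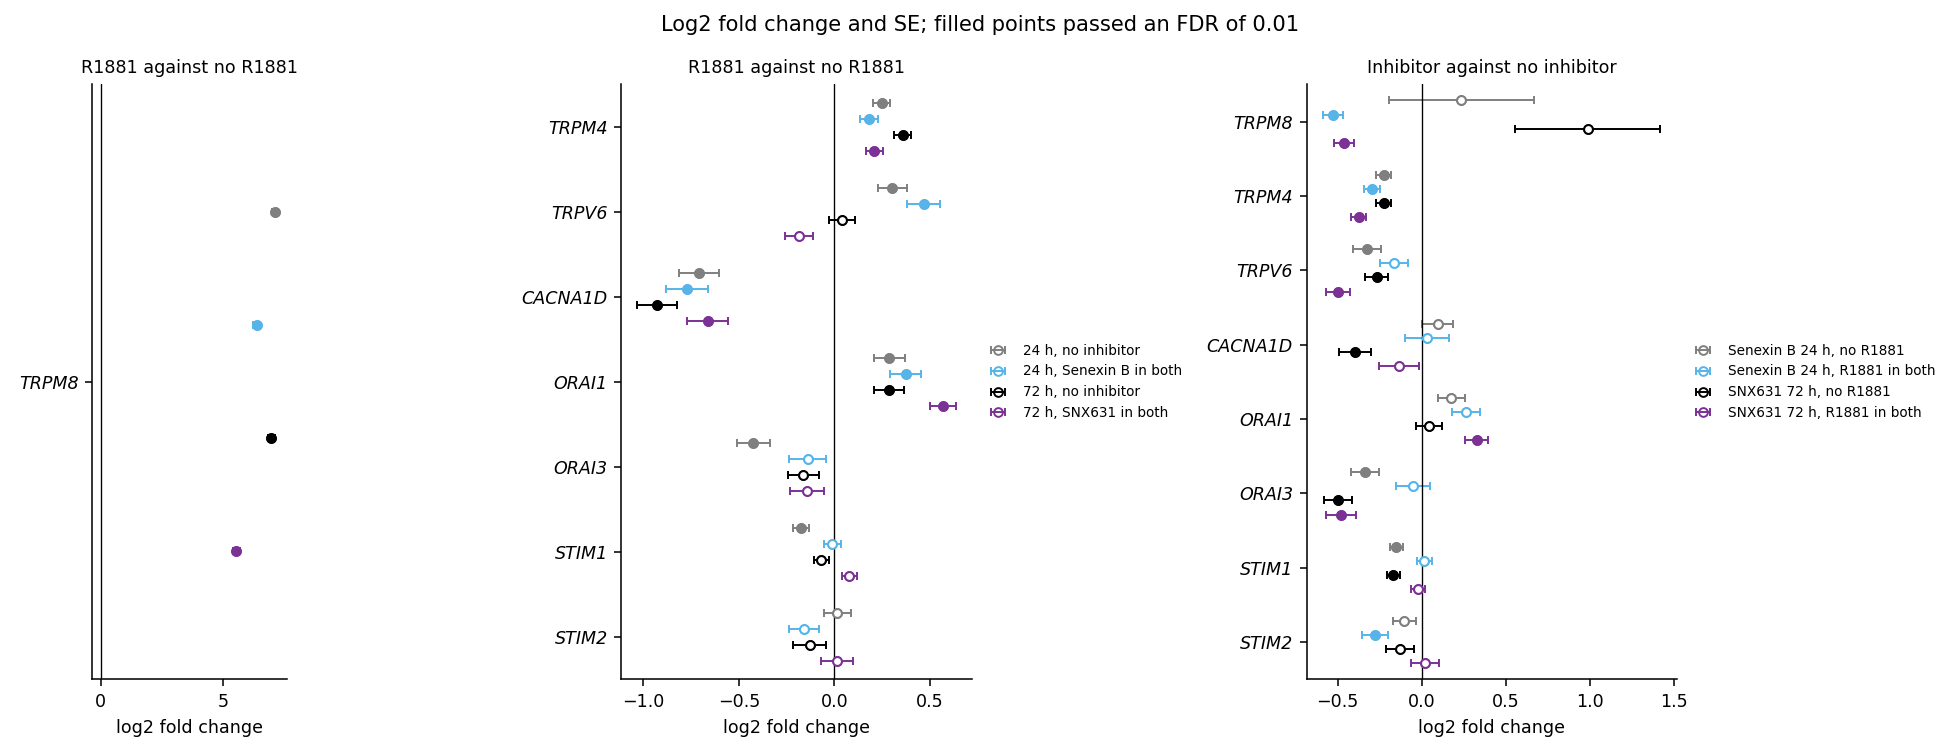
Log2 fold change and SE of each member for R1881 (TRPM8 left on its own axis, the other members in the middle) and for inhibitor (right), in 4 comparisons each, with filled points where FDR was under 0.01. TRPM8 lies between 5.53 and 7.12 for R1881, CACNA1D between -0.93 and -0.66, and with R1881 present both inhibitors give filled points below 0 for TRPM8 and TRPM4.

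The order of the members by level per kilobase of exon changed with androgen. In vehicle at 24 h, STIM1 (13.03 ± 0.389 CPM per kilobase) and TRPM4 (12.7 ± 0.380) led and overlapped, followed by ORAI1 (7.69 ± 0.667), ORAI3 (5.79 ± 0.282), STIM2 (3.61 ± 0.272), TRPV6 (2.15 ± 0.114), CACNA1D (0.565 ± 0.0520) and TRPM8 (0.0416 ± 0.0129). TRPM4 and the genes after it were each separate from the next in every library. In R1881 at 24 h, TRPM4 led at 15.2 ± 0.750, above STIM1 at 11.5 ± 0.423 and ORAI1 at 9.39 ± 0.0902, and TRPM8 took the place after ORAI1 at 6.32 ± 0.197, with all 8 separate. The place of ORAI3 in each order is uncertain, as 52.9% of its exons are shared with AC135048.1. Exon length here is the union of all annotated exons of a gene, such as 11925 bases for TRPV6 and 20588 for CACNA1D. Where the transcripts present are shorter than this union, the level per kilobase is too low. The places of TRPV6, CACNA1D and the other members are therefore uncertain as well. Vehicle at 72 h had the same order as at 24 h but for the overlapping TRPM4 and STIM1. In R1881 at 72 h, TRPM8 (4.37 ± 0.135) overlapped ORAI3 (4.46 ± 0.402). With R1881 and SNX631, ORAI1 (11.2 ± 0.270) reached STIM1 (11.2 ± 0.587), and STIM2, ORAI3 and TRPM8 lay between 3.17 and 3.29 with neighbours overlapping.

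**Figure D4:**
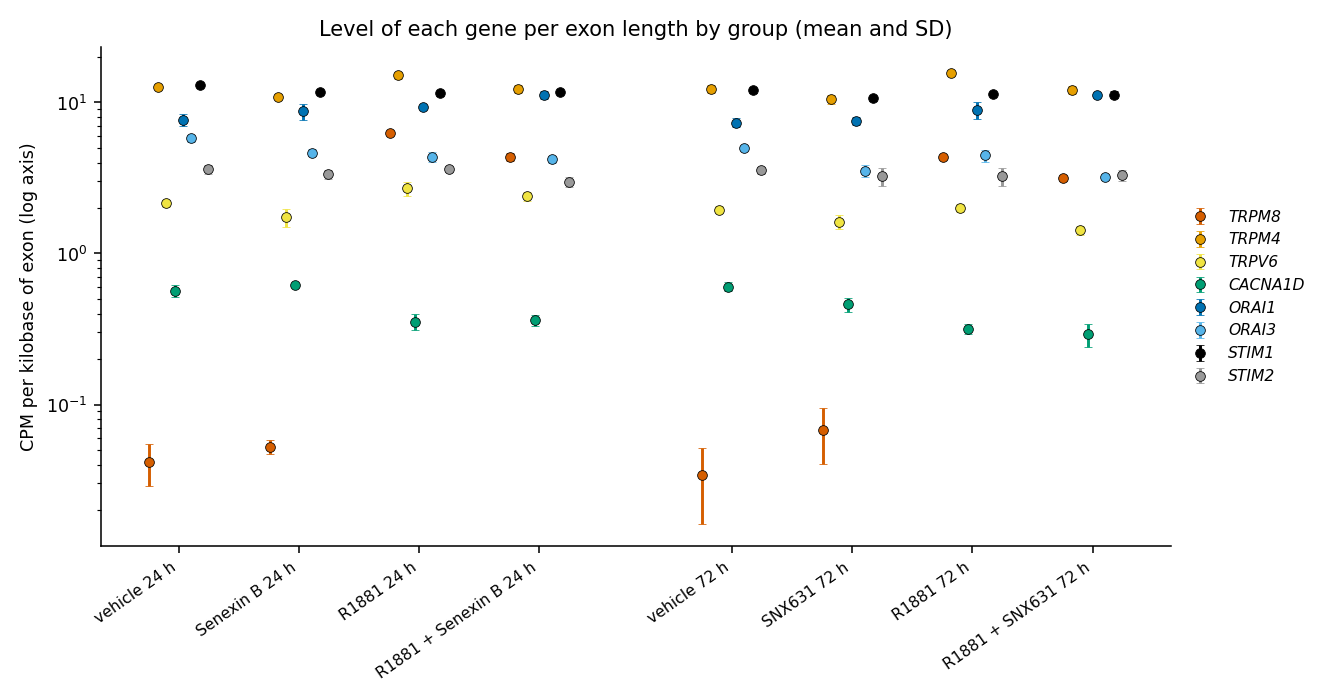
Mean level and SD of each member in CPM per kilobase of exon, on a log axis, by group. TRPM8 moves from the lowest place (0.0416 in vehicle at 24 h) to the middle of the set (6.32 in R1881 at 24 h), and CACNA1D, TRPV6 and the store-operated genes keep to narrower ranges.

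The genes whose log2 CPM followed each member most closely were found over the 28 libraries, centred within each experiment, among 13477 genes. The libraries form treatment groups, so these values largely rank group means. For TRPM8 they were CENPN (Pearson r = 0.994), C19orf48 (0.994) and MPHOSPH9 (0.993), and for TRPM4 SGSM3 (0.944), C9orf152 (0.942) and BCL2L1 (0.942). CACNA1D was nearest to GRIK1 (0.942), JCAD (0.942) and RTN4RL1 (0.939), and TRPV6 to CGNL1 (0.815), FRY (0.809) and PTS (0.799). ORAI1 was nearest to HSF1 (0.941), TMEM52 (0.914) and IFFO2 (0.914), and ORAI3 to RING1 (0.904), BAIAP2-DT (0.901) and VWA5A (0.901). Among the nearest to STIM1 were JDP2 (0.774) and VTI1B (0.767), and STIM2, with the weakest likeness, was nearest to PRAC2 (0.675), DCTN6-DT (0.663) and DAAM1 (0.652). Within the set, TRPM8 was most opposed to CACNA1D (-0.915) and most like ORAI1 (0.756), while ORAI1 and ORAI3 gave -0.594.

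Around the members, 97 other calcium genes were listed in 7 groups, and 56 were expressed well enough to be tested at 24 h and 57 at 72 h. R1881 raised 10 and lowered 25 at 24 h (3 and 11 called), and raised 17 and lowered 26 at 72 h (2 and 9 called). Over all genes, 48.3% passed and 19.0% were called at 24 h and 52.2% and 19.8% at 72 h, so the number called was near the background. Their median log2 fold change was -0.13 and -0.16, against -0.02 and -0.01 over all genes. Of 7 tested voltage-gated channel subunits, 1 rose and 4 fell at 24 h, and 1 rose and 5 fell at 72 h. Of 7 genes of the mitochondrial calcium uniporter, which takes calcium into that organelle, 4 fell at each time, and 1 rose at 72 h. Among 9 partners of store-operated entry, 3 rose and 3 fell at 24 h and 4 rose and 4 fell at 72 h, and of 8 other TRP channels, 3 rose and 2 fell at 24 h and 4 rose and 1 fell at 72 h. Of 4 ER release channels 3 fell at each time and 1 rose at 72 h, of 7 and 8 pumps and exchangers 1 rose and 4 fell at each, and of 14 calcineurin signalling genes 2 rose and 5 fell at 24 h and 5 rose and 5 fell at 72 h.

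CACNG4, an auxiliary subunit of calcium channels and glutamate receptors, was the only listed gene called higher with R1881 in both experiments. It stood at 0.544 ± 0.0665 CPM in vehicle and 10.7 ± 0.809 CPM in R1881 at 24 h (log2 fold change 4.22 ± 0.182, FDR 2.18e-19), and at 1.32 ± 0.0974 and 10.7 ± 1.55 CPM at 72 h (2.99 ± 0.148, FDR 5.42e-20). At 24 h its means without R1881, 0.544 in vehicle and 0.636 ± 0.286 CPM in Senexin B, lay under the filter's level of 0.823 CPM. CACNG4 was thus kept there through the R1881 groups, and a gene kept in this way had to differ. A further 8 listed genes were called lower in both. ATP2A3, a pump that fills the ER with calcium, went from 3.10 ± 0.375 to 0.744 ± 0.205 CPM at 24 h (-2.09 ± 0.251, FDR 1.42e-08) and changed by -1.89 ± 0.236 at 72 h (FDR 8.43e-09). Its mean in R1881 lay under the filter's level at 24 h, and also at 72 h (0.758 CPM against a level of 0.818 CPM). In both experiments ATP2A3 was thus kept through groups where it was higher. NFATC2, a transcription factor activated by calcineurin, changed by -1.62 ± 0.237 (FDR 5.97e-07) and -1.73 ± 0.201 (FDR 1.53e-09). CACNA1G, the pore of a T-type channel, changed by -1.73 ± 0.242 (FDR 2.80e-07) and -1.39 ± 0.200 (FDR 1.46e-07).

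With inhibitor and no R1881, 7 listed genes rose and 13 fell with Senexin B (0 and 3 called), and 8 rose and 15 fell with SNX631 (1 and 3 called). With R1881 present, 8 rose and 8 fell with Senexin B (1 and 1 called) and 8 and 15 with SNX631 (2 and 2 called). Over all genes, 25.1% passed and 3.76% were called with Senexin B and 26.9% and 4.76% with SNX631 without R1881, and 22.6%, 3.12%, 33.2% and 4.11% with it, and the few calls in the lists were near these shares. MCOLN2, a TRP channel of endosomes and lysosomes, was raised by each inhibitor, to 16.1 ± 1.64 CPM from 9.88 ± 0.556 CPM with Senexin B and R1881 (0.70 ± 0.104, FDR 3.11e-06) and to 14.3 ± 0.515 CPM from 7.62 ± 0.408 CPM with SNX631 and R1881 (0.91 ± 0.0890, FDR 8.49e-11). R1881 raised it as well (0.74 ± 0.115, FDR 1.84e-06 at 24 h). CACNA1G was lowered without R1881 by Senexin B (-0.81 ± 0.200, FDR 0.00187) and by SNX631 (-1.49 ± 0.197, FDR 1.09e-07), and NFATC2 likewise (-0.82 ± 0.199, FDR 0.00156, and -0.85 ± 0.170, FDR 0.000110).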

How the data were processed

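The authors deposited a table of expected counts per gene for the 28 libraries, in which 16.9% of values above 0 were fractional. Per the submitters' processing notes, the tools were FastQC, cutadapt 2.8, STAR 2.7.2b and featureCounts of Subread 2.0.3, with builds GRCh38.p13 and GRCm39 named without their roles. Libraries were made with a directional kit, and whether counting used strand is not given in the sources used here. The 2 entries added to the human genes were at 0 and were left out. Groups followed the treatment labels.

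Counts were rounded to whole numbers. Each experiment was fitted by itself in edgeR 4.0.16 (TMM, low counts filtered by filterByExpr at 10 per library and 15 in total, glmQLFit and glmQLFTest, group as the only factor), with Benjamini-Hochberg adjustment over 15963 genes at 24 h and 16084 at 72 h. Filtering keeps genes that reach the minimum in any group. The common biological coefficient of variation was 2.72% and 2.38%, and precision is set by totals of 9846595 to 33809419. Differences between experiments came from a fit of all 28 libraries (16685 genes). SE is the log2 fold change divided by the root of F. The limits, FDR under 0.01 and fold over 1.5, are those of the study. Exon lengths (the union of all annotated exons of a gene) and overlaps came from GENCODE 29 and promoters from RefSeq. The text names all members, KLK3, for each member the 3 genes of highest r, and listed calcium genes called the same way in both experiments, up to the 3 highest and 3 lowest for R1881 and the 2 highest and 2 lowest for inhibitors. CACNG4 alone qualified as highest for R1881, and MCOLN2 as highest for inhibitors. One gene near STIM1 by r and 1 prostate marker are not reported here. Members and lists were chosen with earlier results of these data known. On simulated data (200 genes changed by a log2 fold change of 1, tested at 24 and at 72 h), edgeR recovered 100% with 0 false calls, among 15708 and 15806 genes. The simulation gave every gene the common coefficient of variation and changed only genes of higher mean level. It therefore does not cover the smaller effects of most members, genes of greater spread, or TRPM8 without R1881. Alternatives were other scalings, filters and limits, DESeq2 1.42.0, a replicate block, fractional counts, a joint fit, each library left out and, chosen after seeing the data, thinning to equal depth.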

Additional observations from a re-analysis of the deposited data

Results flagged for a closer look

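TRPV6 in R1881 at 72 h had 1 library apart from its group. Replicate 4 held 21.8 CPM, while the other 3 libraries held 24.5 to 25.0 CPM. The gap divided by the range was 0.848, above the 95% critical value of Dixon's test for 4 samples. The test was made on 32 groups of 4 libraries, all members at 72 h, and chance flags about 1 in 20.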

How the results depend on the processing

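Replicate numbers showed little pairing of the libraries. Same-numbered libraries of an experiment correlated, after group means were removed, at -0.068 to 0.184 at 24 h (2 of 18 pairs over 0.1) and -0.0859 to 0.0551 at 72 h (0 of 24). Differently numbered libraries gave -0.170 to 0.0904 at 24 h (0 of 36) and -0.133 to 0.183 at 72 h (3 of 72). Weak pairing at 24 h is not excluded by these values. With the replicate number as a block, 2 members were called for R1881 in each of the 4 R1881 comparisons, 0 for inhibitor and for interaction, and no call of a member changed. The sign of STIM2 for R1881 at 24 h became -0.00357. Over all genes the block gave 3028 calls for R1881 at 24 h and 3176 at 72 h, against 3028 and 3183.

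With no fold limit at FDR under 0.01, the members called were 7, 5, 4 and 3 at 24 h (R1881, R1881 with Senexin B, Senexin B, Senexin B with R1881) and 4, 4, 5 and 5 at 72 h. With FDR under 0.05 and fold over 1.5, 1 member (TRPM8) was called for the interaction with SNX631, and at an FDR of 0.05 for the differences between inhibitors 1 passed without R1881 (CACNA1D) and 1 with it (ORAI3). Leaving out 1 library gave 1 to 2 members called for R1881 with SNX631, and 0 to 1 passed for the inhibitor difference without R1881. DESeq2 and the joint fit changed no member's call at the limits used.

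Scaling by library totals moved the median of all genes for R1881 at 72 h by -0.102, and with SNX631 by -0.108. It turned the sign of STIM2 for R1881 at 24 h (-0.0636), of CACNA1D (-0.00486) and STIM1 (-0.0210) for Senexin B with R1881, of TRPV6 for R1881 at 72 h (-0.0614), of STIM1 (-0.0297) and STIM2 (-0.0940) for R1881 with SNX631, and of STIM2 for SNX631 with R1881 (-0.0161). Without a filter STIM2 for R1881 at 24 h was -0.000156, and at equal depth STIM1 for Senexin B with R1881 was -0.000798 and ORAI1 for SNX631 -0.0378. None of these effects had passed.
Leaving out 1 library at a time turned the sign of 8 effects that had not passed, which then ranged from -0.0131 to 0.0585 for STIM2 (R1881, 24 h), -0.0414 to 0.00999 for STIM1 (R1881 with Senexin B), -0.0562 to 0.119 for CACNA1D and -0.0194 to 0.0327 for STIM1 (Senexin B with R1881), -0.0455 to 0.104 for STIM2 (R1881 with SNX631), -0.00986 to 0.0655 for ORAI1 (SNX631), and -0.0499 to 0.00238 for STIM1 and -0.0516 to 0.120 for STIM2 (SNX631 with R1881).
Depth limits TRPM8 without R1881, where a library held 1 to 14 counts. The cause of the changes above was not tested beyond the settings named.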
